A study of Drosophila melanogaster with 7 samples.

Results

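The JAK/STAT pathway of Drosophila was followed through 10 genes, which were hop, dome, et, Stat92E, Socs36E, Socs44A, Socs16D, Ptp61F, ken and Su(var)2-10. They were taken by exact name from 17697 named gene rows of RNA sequencing data from the trachea, the epithelial airway of the larva, and all 10 were found. The pathway runs from secreted ligands of the Unpaired (Upd) family through the receptor Domeless (dome) and the Janus kinase Hopscotch (hop) to the transcription factor Stat92E, which enters the nucleus once phosphorylated. It is restrained by a decoy receptor (et), by SOCS-box proteins that act on the receptor and kinase, by the tyrosine phosphatase Ptp61F, by the PIAS protein Su(var)2-10 and by the repressor ken. Socs36E is a widely used target gene of the pathway, so that signalling induces one of its own inhibitors, and in airway epithelium the pathway is known for roles in tracheal development and in responses to stress and infection.

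The libraries came from trachea of third-instar larvae, in 3 Hop.CA libraries and 4 control libraries, whose replicates the labels call biological. The strain label reads btl-Gal4, UAS-GFP with UAS-Hop.CA, tub-Gal80ts and is the same for all 7 libraries, although the controls are also called wild type, so whether the controls carry the UAS-Hop.CA transgene rests on that label alone. btl-Gal4 is a driver active in tracheal cells, Gal80ts blocks Gal4 at the low temperature, and Hop.CA is the form of the kinase expressed to raise signalling. Hop.CA animals were grown at 18 °C and then at 29 °C for 18 hours from the second larval stage until sampling, and control animals were grown at 18 °C. Hop.CA expression and temperature therefore cannot be told apart, and the number of animals in each library is not stated. In RNA from whole tissue, fewer cells of a type and less RNA per cell cannot be told apart either.

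Total gene reads numbered 16795748 to 20455268 per library, and 5.06% to 7.17% of them lay in introns. Levels are given as CPM, the total gene reads of a gene scaled to an effective library size, which is the sum of reads in the library multiplied by its TMM factor. A gene was called changed where edgeR's quasi-likelihood test gave an adjusted p under 0.05 (Benjamini-Hochberg) over the 9457 genes that passed the filter on low counts. Of the 10 genes, all of which passed, 4 were higher (hop, dome, Socs36E and Ptp61F), 1 was lower (ken) and 5 were not called. Among all tested genes 31.5% were called, 16.4% as higher and 15.1% as lower, so calls were common in these data. The median log2 fold change of the 10 genes was 0.15, against -0.01 over all tested genes. For 5 of the 10 genes all Hop.CA libraries were above all controls, where 43.3% of all tested genes had groups without overlap, and 23.3% had Hop.CA as the higher one. Control replicate 1 was the lowest control for 8 of the 10 genes and for 32.6% of all tested genes.

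**Figure D1:**
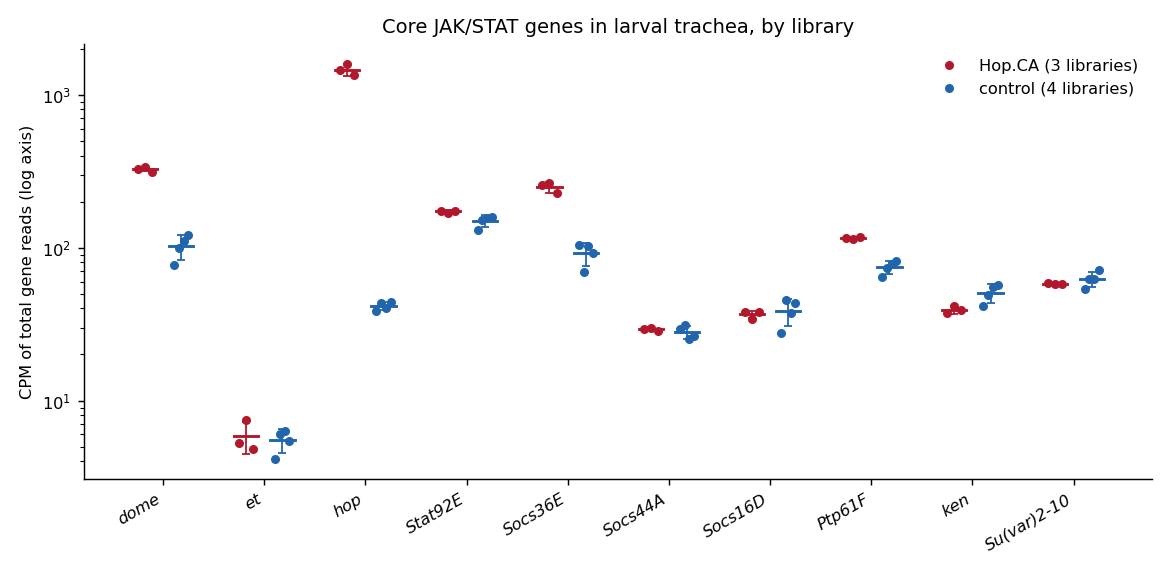
CPM of total gene reads (log axis) of the 10 genes in each library, with the 3 Hop.CA libraries left of the 4 control libraries, bars at the mean and error bars for the SD. The Hop.CA points of hop, dome, Stat92E, Socs36E and Ptp61F lie above every control point, and those of the other 5 genes overlap with the controls.

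hop, the gene of the expressed kinase, was the most changed of the 10. It lies on chromosome X (11360930 to 11368098, minus strand, dm6) and has 10 annotated exons. It stood at 1444, 1593 and 1342 CPM in the Hop.CA libraries, against 38.4, 43.3, 40.1 and 44.0 CPM in the control libraries. Every Hop.CA library was thus far above every control library, and the groups averaged 1459.6 ± 126 CPM in Hop.CA and 41.5 ± 2.64 CPM in control (SD, n = 3 and 4). The log2 fold change was 5.14 ± 0.103 (SE, edgeR adjusted p = 2.69e-07), which corresponds to 35.2-fold.

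The added hop reads were exonic. Exon reads of hop numbered 27297, 29849 and 26563 in the Hop.CA libraries, against 708, 895, 672 and 897 in the control libraries. Reads across a splice junction, called exon-exon reads, numbered 3203, 3395 and 3082 in Hop.CA, against 81, 75, 64 and 99 in control. Intron reads numbered 3, 8 and 9 in Hop.CA, against 8, 7, 2 and 9 in control. The exon and exon-exon reads of the groups were far apart, while the intron reads spanned the same range. Introns held 0.0239% ± 0.0117 of hop reads in Hop.CA and 0.796% ± 0.361 in control (SD, n = 3 and 4). The intron reads of hop were under the filter. Without that filter their log2 fold change was 0.19 ± 0.503 (SE, edgeR adjusted p = 0.891), and the intron-to-exon ratio had a log2 change of -4.98 ± 0.455 (SE, edgeR adjusted p = 1.16e-21), where 3.33% of 9041 genes were called and 1.36% were lower. Exon-exon reads made up 11.6% ± 0.182 of hop exon reads in Hop.CA and 10.1% ± 1.41 in control, and this share did not pass the test (log2 0.21 ± 0.0860, edgeR adjusted p = 0.772). Reads of the transgene and of the chromosomal gene cannot be told apart in these counts, and the labels do not say whether the transgene holds introns.

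The receptor gene dome was higher in Hop.CA. dome encodes the type I cytokine receptor for the Upd ligands and lies on X (19676061 to 19683518, minus strand, 3 exons). It stood at 327, 338 and 314 CPM in the Hop.CA libraries, against 76.4, 98.9, 111 and 121 CPM in the control libraries. The lowest Hop.CA library was well above the highest control, and the controls spread more than the Hop.CA libraries. The log2 fold change was 1.68 ± 0.147 (SE, edgeR adjusted p = 4.87e-04), or 3.21-fold.

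et (eye transformer) encodes a shorter receptor that lacks signalling activity and opposes dome. It is the nearest annotated gene to dome, on the same strand of X (19672312 to 19675891), with 170 bases between its end and the start coordinate of dome. It stood at 5.29, 7.47 and 4.85 CPM in the Hop.CA libraries, against 4.13, 6.05, 6.37 and 5.44 CPM in the control libraries. These groups overlapped, and et was not called (log2 0.09 ± 0.215, SE, edgeR adjusted p = 0.769). The difference between the receptor genes was read as the log2 ratio of dome to et in each library. It averaged 5.82 ± 0.281 in Hop.CA and 4.21 ± 0.190 in control (SD, n = 3 and 4), a difference of 1.61. A two-sided exact permutation test gave p = 0.0571, the smallest value that 3 against 4 libraries allow.

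The transcription factor gene Stat92E (3R, 20535323 to 20552311, minus strand) was not called. It stood at 175, 168 and 174 CPM in the Hop.CA libraries, against 130, 152, 157 and 158 CPM in the control libraries. The Hop.CA libraries were all above the controls, by a small margin. The log2 fold change was 0.21 ± 0.0864 (SE, edgeR adjusted p = 0.102). These are transcript levels, and phosphorylation, by which Stat92E is activated, was not measured.

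Of the 3 SOCS genes, Socs36E was called higher and the others were not called. Socs36E encodes a SOCS-box protein that limits signalling at the receptor and kinase (2L, 18138675 to 18152417, minus strand). It stood at 257, 263 and 226 CPM in the Hop.CA libraries, against 104, 69.1, 102 and 91.5 CPM in the control libraries. Every Hop.CA library was above every control, and control replicate 2 was the lowest. The log2 fold change was 1.44 ± 0.144 (SE, edgeR adjusted p = 6.81e-04), or 2.71-fold.

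Socs44A, a SOCS gene also known as a modulator of EGFR signalling, lies on 2R (8127575 to 8129476, plus strand). It stood at 29.5, 29.9 and 28.5 CPM in the Hop.CA libraries, against 29.1, 31.0, 25.3 and 26.6 CPM in the control libraries, and the groups overlapped (log2 0.07 ± 0.0857, SE, edgeR adjusted p = 0.590). Socs16D, the third fly SOCS gene, lies on X (17820764 to 17827564, minus strand). It stood at 37.8, 34.1 and 38.0 CPM in Hop.CA, against 27.8, 45.3, 37.2 and 43.5 CPM in control, where control replicate 1 lay below and replicates 2 and 4 above all Hop.CA libraries (log2 -0.07 ± 0.162, SE, edgeR adjusted p = 0.767). The log2 ratio of Socs36E to Socs44A averaged 3.08 ± 0.0817 in Hop.CA and 1.70 ± 0.373 in control (SD, n = 3 and 4). The log2 ratio of Socs36E to Socs16D averaged 2.76 ± 0.187 in Hop.CA and 1.26 ± 0.550 in control. Both ratios separated the groups completely, with differences of 1.38 and 1.502, and had p = 0.0571 in two-sided exact permutation tests, as small as the design allows. Adjusted over the 3 ratios compared, receptor ratio included, each remained at 0.0571 in the exact permutation tests.

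Ptp61F encodes a tyrosine phosphatase that acts on hop and Stat92E and covers a long locus on 3L (1342493 to 1475257, minus strand, 14 exons). It stood at 115, 113 and 118 CPM in the Hop.CA libraries, against 64.6, 73.7, 77.9 and 82.3 CPM in the control libraries. The Hop.CA libraries lay close together and above every control. The log2 fold change was 0.63 ± 0.0901 (SE, edgeR adjusted p = 0.00243), or 1.55-fold. The annotation places 19 other gene rows within or across the Ptp61F locus, of which 14 had no read in any library and 2, 312 and rho, passed the filter. rho, an EGFR ligand protease gene on the opposite strand, was lower, at 3.47 ± 0.656 CPM in Hop.CA and 8.71 ± 0.605 CPM in control (SD, n = 3 and 4; edgeR adjusted p = 0.00138). Whether the counting used strand is not given in the sources used here, and the part of rho reads in the Ptp61F counts was not tested.

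The nuclear regulators were lower or not called. ken (ken and barbie) encodes a zinc finger repressor of some Stat92E target genes and lies on 2R (23870273 to 23877442, plus strand). It stood at 37.2, 41.5 and 39.0 CPM in the Hop.CA libraries, against 41.3, 49.3, 55.2 and 57.4 CPM in the control libraries. Hop.CA replicate 2 and control replicate 1 overlapped. ken fell by 0.37 on the log2 scale (SE 0.119, edgeR adjusted p = 0.0470), which is close to the threshold. The call was lost in 12 of 17 alternative settings, among them without any 1 Hop.CA library or without control replicate 2, 3 or 4 (edgeR adjusted p 0.0653 to 0.147), while without control replicate 1 it was kept (0.00522). Over all settings its edgeR adjusted p ran from 0.00522 to 0.178.

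Su(var)2-10 encodes the fly PIAS protein, a SUMO ligase that binds Stat92E, and lies on 2R (9116122 to 9122000, plus strand, 18 exons). It stood at 58.4, 57.7 and 57.9 CPM in the Hop.CA libraries, against 53.5, 62.7, 62.0 and 70.9 CPM in the control libraries. The Hop.CA libraries were nearly identical and lay inside the control range (log2 -0.10 ± 0.0977, SE, edgeR adjusted p = 0.451). For 8 of the 10 genes the coefficient of variation was larger among the controls than among the Hop.CA libraries. The share of all tested genes for which this holds is not given here, so the count is not read as a trait of these 10 genes.

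The read classes were then fitted one by one over all genes. In exon reads the same 4 genes were higher and ken was lower, where 31.9% of all tested genes were called (16.6% higher and 15.2% lower). In exon-exon reads 9 of the 10 genes passed the filter and 3 were higher, beside 14.1% of all genes called and 7.03% higher. These were hop (log2 5.30 ± 0.130), dome (1.75 ± 0.228) and Socs36E (1.35 ± 0.204, SE, edgeR adjusted p at most 0.00299). et, with 0 to 3 exon-exon reads in a library, did not pass the filter. Exon-exon reads of Ptp61F numbered 166, 150 and 178 in Hop.CA, against 90, 120, 129 and 146 in control. They did not overlap but were not called (log2 0.40 ± 0.158, SE, edgeR adjusted p = 0.124). Exon-exon reads of ken numbered 7 in each Hop.CA library, against 6, 19, 15 and 19 in control, and were not called (log2 -1.10 ± 0.415, SE, edgeR adjusted p = 0.107). Only the controls with 19, 15 and 19 such reads carried ken past the filter on this class. Without control replicate 1, the control with 6, ken was called lower (edgeR adjusted p = 0.0134). That call depends on a filter passed through the higher group alone and is given as a description.

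Intron reads were few, and 5 of the 10 genes passed the filter on them. dome and Socs36E were higher, where 19.4% of all genes tested in this class were called and 10.7% were higher. dome had 93, 85 and 108 intron reads in the Hop.CA libraries, against 5, 8, 24 and 28 in the control libraries, so that it was the Hop.CA libraries and control replicates 3 and 4 that carried it past the filter. The groups were far apart (log2 2.67 ± 0.377, SE, edgeR adjusted p = 7.35e-04). Socs36E had 78, 69 and 79 intron reads in Hop.CA, against 18, 12, 32 and 28 in control, again with no overlap (log2 1.83 ± 0.294, SE, edgeR adjusted p = 0.00112). Stat92E, with 50, 63 and 42 intron reads in Hop.CA and 46, 80, 74 and 86 in control, was not called (log2 -0.33 ± 0.217, SE, edgeR adjusted p = 0.315). Su(var)2-10, with 52, 66 and 61 in Hop.CA and 86, 88, 54 and 104 in control, was not called either (log2 -0.37 ± 0.229, SE, edgeR adjusted p = 0.285). The intron reads of Ptp61F were not called (log2 -0.64 ± 0.296, SE, edgeR adjusted p = 0.149). Without control replicate 1 they were called lower (0.0204), and with unique reads alone their log2 fold change was 0.51 (range of edgeR adjusted p over all settings 0.0204 to 0.427).

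**Figure D2:**
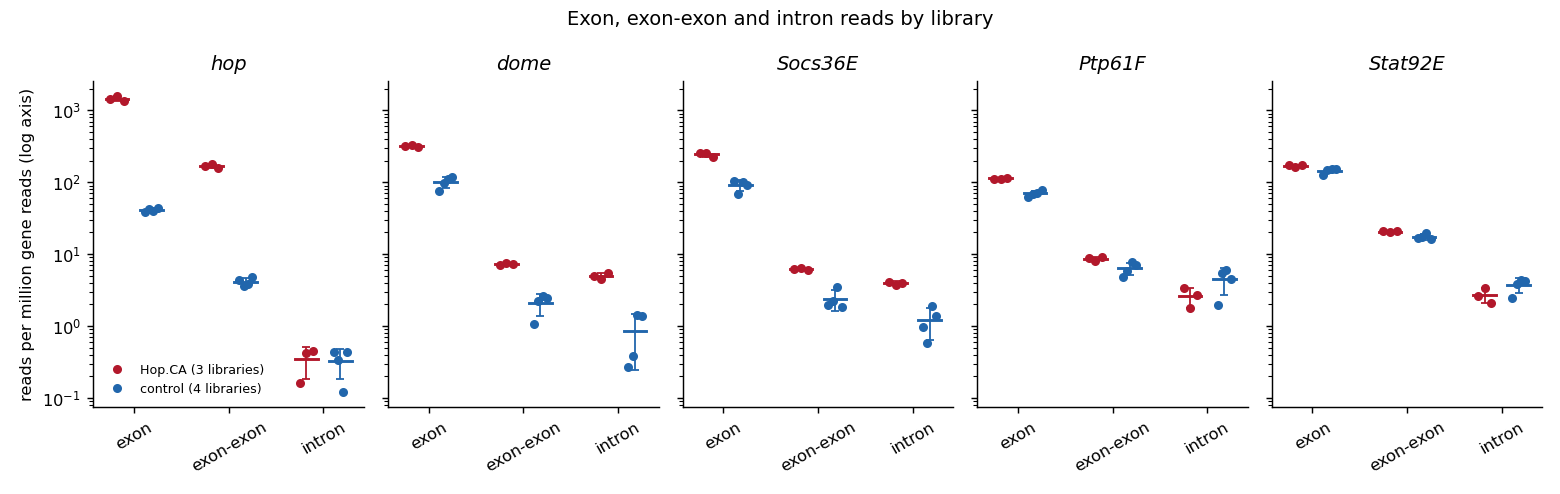
Exon, exon-exon and intron reads, scaled to the same effective library sizes as the CPM (log axis), of hop, dome, Socs36E, Ptp61F and Stat92E in each library, Hop.CA left of control, with bars at the mean and error bars for the SD. Exon and exon-exon reads of hop are far higher in Hop.CA while its intron reads cover the same range in both groups, and dome and Socs36E are higher in all 3 classes.

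A test of the intron-to-exon ratio, in which each library serves as its own block, was possible for the same 5 genes, and 2 were called beside 12.9% of all genes tested (7.38% higher and 5.52% lower). The ratio of dome was higher in Hop.CA. Introns held 1.53% ± 0.198 of dome reads in Hop.CA and 0.788% ± 0.488 in control (SD, n = 3 and 4; log2 1.07 ± 0.299, SE, edgeR adjusted p = 0.0282). This call was lost without Hop.CA replicate 1, 2 or 3 or control replicate 2 (edgeR adjusted p 0.0578 to 0.0995). The ratio of Ptp61F was lower, with introns holding 2.24% ± 0.671 of its reads in Hop.CA and 5.92% ± 2.19 in control (log2 -1.31 ± 0.270, SE, edgeR adjusted p = 0.00642). Most of its intron reads in control were not unique. All intron reads of Ptp61F numbered 63, 33 and 53 in Hop.CA, against 36, 115, 101 and 93 in control, and the unique ones 29, 20 and 29 in Hop.CA, against 16, 16, 22 and 24 in control. With unique reads, an alternative added once the data had been seen, the ratio of Ptp61F was not called (log2 -0.13, edgeR adjusted p = 0.792). The locus holds 9 rows of the tRNA:Glu-CTC family among its overlapping genes, none with a read of its own, and the origin of the reads that were not unique was not tested.

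The ratios of Stat92E (log2 -0.54 ± 0.202, edgeR adjusted p = 0.0870), Socs36E (log2 0.44 ± 0.238, 0.241) and Su(var)2-10 (log2 -0.26 ± 0.238, 0.4999) were not called by edgeR, and that of Stat92E was called without control replicate 1 (edgeR adjusted p = 0.0322). The share of exon reads that span a junction was called by edgeR for 0 of the 9 genes tested, beside 0.18% of all genes, and limma-voom also called 0. At an unadjusted p under 0.05 there were 2, hop (edgeR unadjusted p = 0.0239) and Ptp61F (edgeR unadjusted p = 0.0241). Both had an edgeR adjusted p of 0.772. The share of all genes at that unadjusted limit is not given here, so these 2 cannot be set against the 0.18%.

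**Figure D3:**
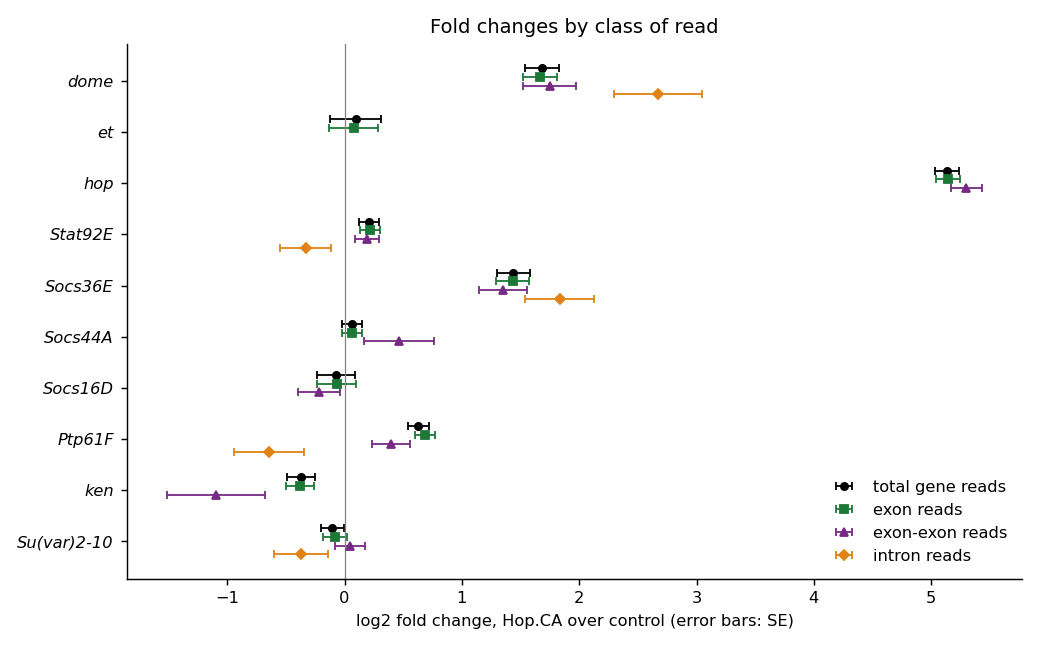
Log2 fold changes of Hop.CA over control for the total, exon, exon-exon and intron reads of each gene that passed the filter in that class, with the SE of the fit as error bars. hop lies above 5 in the 3 classes in which it was tested, dome reaches 2.67 in intron reads, and the intron reads of Ptp61F lie at -0.64, not called. The value of Ptp61F with unique intron reads, 0.51, is not drawn.

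Levels were compared between genes with the deposited RPKM, which accounts for exon length. In the Hop.CA libraries hop came first with 286 ± 17.4 RPKM (SD, n = 3). Socs36E with 69.1 ± 4.81 and dome with 65.4 ± 1.55 RPKM followed, and their libraries overlapped. Next came Stat92E (32.3 ± 1.77 RPKM), Ptp61F (18.4 ± 0.752), Socs44A (15.7 ± 0.325), ken (12.5 ± 0.355), Su(var)2-10 (10.8 ± 0.456), Socs16D (7.38 ± 0.672) and et (2.34 ± 0.454). Each of these was separate from its neighbours in that order in all 3 libraries.

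In the control libraries Stat92E came first with 27.9 ± 2.91 RPKM (SD, n = 4), and hop was the eighth of the 10. Socs36E (25.7 ± 4.07 RPKM), dome (20.7 ± 4.15), ken (16.4 ± 2.55) and Socs44A (15.2 ± 1.41) followed. From Stat92E to Socs44A the libraries of neighbours in this order overlapped, and Socs44A was separate from Ptp61F, which came next. Ptp61F and Su(var)2-10 both averaged 11.5 RPKM (SD 1.24 and 1.59) and overlapped. hop (8.12 ± 0.684 RPKM) and Socs16D (7.78 ± 1.75) also overlapped, and et was the lowest with 2.24 ± 0.420 RPKM, separate from Socs16D. Among all 17697 rows hop ranked at position 265 in Hop.CA and 5341 in control by mean RPKM.

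The 2 annotated genes on each side of hop, dome and Socs36E were read beside them. Pa1, whose last base adjoins the hop locus, was higher (log2 0.36 ± 0.0817, SE, edgeR adjusted p = 0.0139). Tim8, which encodes a small chaperone of mitochondrial protein import, starts 347 bases beyond hop and was also higher (log2 0.51 ± 0.122, SE, edgeR adjusted p = 0.0172). dsh, a Wnt pathway transducer (log2 -0.09 ± 0.0944), and dlg1, a septate junction scaffold (log2 -0.04 ± 0.144), were not called by edgeR (adjusted p 0.486 and 0.852). Both calls near hop depended on single libraries. Pa1 lost it without Hop.CA replicate 1 (edgeR adjusted p = 0.0611). Over its settings the adjusted p of Pa1 ran from 0.00572 by DESeq2 to 0.114 by edgeR. Tim8 lost the call without Hop.CA replicate 1, 2 or 3 (edgeR adjusted p 0.0505 to 0.0540).

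Beside dome, the ubiquilin gene Ubqn was higher (log2 0.36 ± 0.0758, SE, edgeR adjusted p = 0.0109) and lost the call without Hop.CA replicate 3 (edgeR adjusted p = 0.0523). Over its settings the adjusted p of Ubqn ran from 1.78e-04 by DESeq2 to 0.0632 by edgeR. et, Zw, the glucose-6-phosphate dehydrogenase gene (log2 0.19 ± 0.0680, edgeR adjusted p = 0.0673), and CG14227 (log2 -0.41 ± 0.327, 0.371) were not called. Beside Socs36E, none of CG5758, kel, CG17681 and CG15155 was called by edgeR, DESeq2 or limma-voom, nor passed an unadjusted p under 0.05, with log2 fold changes of -0.45 to 0.32. The fold changes of hop, dome and Socs36E were thus larger than those of the genes next to them.

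**Figure D4:**
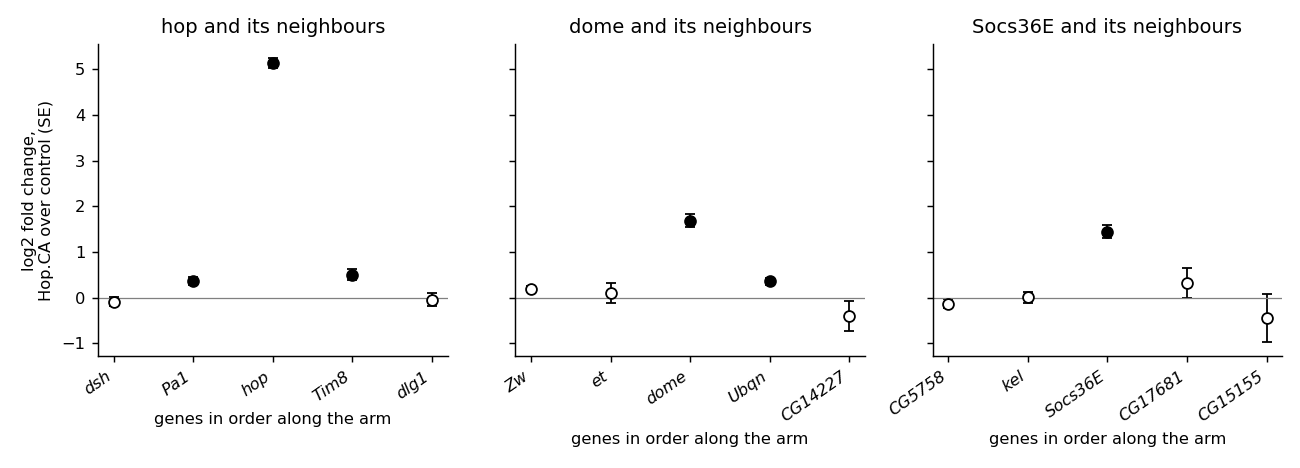
Log2 fold changes of Hop.CA over control, with SE, for hop, dome and Socs36E and the 2 annotated genes on each side, in their order along the chromosome arm. Filled points were called at an adjusted p under 0.05, and the neighbours lie between -0.45 and 0.51 while hop, dome and Socs36E lie at 5.14, 1.68 and 1.44.

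The ligand genes were scarce. None of upd1, upd2 and upd3, which encode the secreted activators of dome, was called by edgeR or limma-voom, while DESeq2 called upd1 lower. upd1 stood at 0.899, 0.213 and 0.505 CPM in the Hop.CA libraries, against 1.40, 0.912, 1.37 and 1.90 CPM in the control libraries. All Hop.CA libraries were below the controls, the closest pair being 0.899 and 0.912 CPM (log2 -1.36 ± 0.478, SE, edgeR adjusted p = 0.0635). Without Hop.CA replicate 1 upd1 was called lower (log2 -1.93, edgeR adjusted p = 0.0425, range over its settings 0.0365 to 0.172). That setting leaves out the Hop.CA library closest to the controls. The Hop.CA libraries left stood at 0.213 and 0.505 CPM, so that the controls carried upd1 past the filter, and the call is given as a description. With no library left out the controls also carried upd1 past the filter, so the DESeq2 call is a description too. upd2 averaged 0.458 ± 0.267 CPM in Hop.CA and 0.183 ± 0.298 CPM in control, and upd3 averaged 0.980 ± 0.308 CPM in Hop.CA and 0.816 ± 0.190 CPM in control (SD, n = 3 and 4; edgeR adjusted p 0.416 and 0.593).

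Further regulators known from work on the fly pathway numbered 16, among them the endosomal sorting genes Hrs, Stam and TSG101. By edgeR 1 was higher and 0 were lower, beside 16.4% of all tested genes higher and 15.1% lower. Their median log2 fold change was 0.11. At an unadjusted p under 0.05 edgeR had 2 higher, Cnot4 and Rab5, and 2 lower, E(bx) and apt. DESeq2 called 1 higher and 2 lower. The 1 gene called by edgeR was Cnot4, a ubiquitin ligase gene, with 164, 176 and 183 CPM in Hop.CA and 109, 147, 145 and 142 CPM in control (log2 0.36 ± 0.115, SE, edgeR adjusted p = 0.0453). Its call was lost in 10 of 17 alternative settings, among them without any 1 Hop.CA library or without control replicate 3 or 4 (edgeR adjusted p 0.0699 to 0.142).

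Of 18 genes reported to respond to STAT activity, 11 passed the filter. By edgeR 3 were higher and 1 was lower, with a median log2 fold change of -0.02. DESeq2 called 2 higher and 2 lower. At an unadjusted p under 0.05 edgeR had 3 higher and 2 lower. The 4 calls by edgeR among 11 stand near the 31.5% of all tested genes. Tep4 and Tep2 encode secreted thioester-containing proteins. Tep4 stood at 1358, 1631 and 1407 CPM in Hop.CA, against 578, 617, 874 and 900 CPM in control (log2 0.98 ± 0.176, SE, edgeR adjusted p = 0.00591). Tep2 stood at 393, 410 and 378 CPM in Hop.CA, against 298, 313, 296 and 310 CPM in control (log2 0.37 ± 0.0693, SE, edgeR adjusted p = 0.00658). For both genes every Hop.CA library was above every control.

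slbo, a C/EBP transcription factor gene known as a STAT target in ovarian border cells, was low in both groups and passed the filter only through the Hop.CA libraries. It stood at 0.529, 0.907 and 0.606 CPM in Hop.CA, against 0.215, 0.240, 0.238 and 0.437 CPM in control (log2 1.24 ± 0.396, SE, edgeR adjusted p = 0.0469). Its call rests on that filter and was lost without it (edgeR adjusted p = 0.0794). It was lost in 11 of 16 settings in all, among them without any 1 Hop.CA library or without control replicate 1, 2 or 3 (edgeR adjusted p 0.0767 to 0.166). nab, a transcriptional cofactor gene, was lower, with 2.70, 1.81 and 2.12 CPM in Hop.CA, against 4.99, 4.51, 5.06 and 8.65 CPM in control (log2 -1.39 ± 0.288, SE, edgeR adjusted p = 0.00979). Of the Turandot stress genes, TotM, TotX and TotZ had no read in any library, and TotA overlapped between the groups. The lists were chosen with results of these data known, and their counts are not independent evidence of a direction.

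Several markers of muscle and of imaginal discs were lower in Hop.CA. The edgeR counts below stand beside 15.1% of all tested genes called lower and 16.4% called higher. The matching shares for DESeq2 and limma-voom are not given here, so the counts by these tools cannot be set against a background. Muscle markers, summed, stood at 3087 to 9547 CPM in Hop.CA and 9111 to 19421 CPM in control, with 6 of 11 genes called lower by edgeR, 9 by DESeq2 and 9 by limma-voom, and a median log2 fold change of -1.28. The sum in Hop.CA replicate 2, 9547 CPM, was above that in control replicate 2, 9111 CPM. Imaginal disc markers stood at 22.9 to 41.9 CPM in Hop.CA and 61.7 to 140 CPM in control, with 5 of 7 called lower by edgeR, 6 by DESeq2 and 3 by limma-voom, and a median of -1.44. Hemocyte markers (555 to 954 CPM in Hop.CA and 589 to 773 CPM in control, 0 of 7 called) and fat body markers (2151 to 4147 CPM in Hop.CA and 1717 to 6189 CPM in control, 0 of 6 called) overlapped between the groups, and edgeR, DESeq2 and limma-voom had 0 of either list at an unadjusted p under 0.05. Tracheal markers stood at 15192 to 16020 CPM in Hop.CA and 10214 to 10933 CPM in control, with 3 of 8 genes higher, 2 lower and a median log2 fold change of -0.07. The sum rests mainly on the chitin deacetylase genes serp (log2 0.74) and verm (log2 0.58), which were higher together with trh (log2 0.48), while btl (log2 -0.63) and sty (log2 -0.49) were lower. No gene of these marker lists, tracheal or other, was without a read over the 7 libraries. The part of these markers in the values of hop, dome, Socs36E, Ptp61F, ken, nab and the other genes was not tested.

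**Figure D5:**
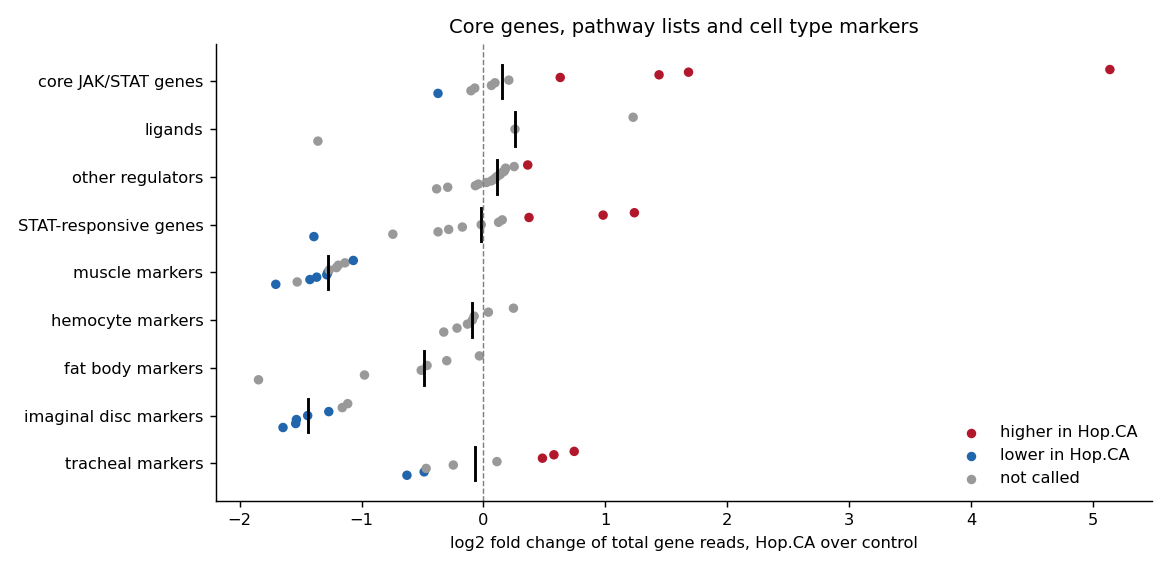
Log2 fold changes of total gene reads, Hop.CA over control, for each tested gene of the core JAK/STAT genes, the pathway lists and the cell type marker lists, with a bar at each list's median. hop stands alone at 5.14, the core genes have a median of 0.15, and muscle and imaginal disc markers have medians of -1.28 and -1.44.

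The genes whose levels were most like those of 4 core genes were found by Pearson's r of log2 CPM over the 7 libraries among 8257 genes. These values share the difference between the groups and the libraries, and are given as a description. For hop the closest were Ubx (r = 0.999), CG3386 (0.997) and CG31960 (0.997), of which Ubx, a Hox gene, stood at 875 ± 59.97 CPM in Hop.CA and 38.5 ± 2.69 CPM in control. For dome they were tun, CG14438 and CG12099, each with r = 0.997. For Socs36E they included CG7530 (r = 0.997) and AnxB11, an annexin gene (0.996). For Stat92E they were Bruce, an inhibitor of apoptosis gene (r = 0.997), the ubiquitin protease gene Usp47 (0.995) and emb, an exportin gene (0.994).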

How the data were processed

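RNA from trachea was made into libraries with the TruSeq stranded mRNA kit, per the labels' protocols, and reads were trimmed with cutadapt 1.8.1 for the dm6 genome build, per the submitters' processing notes. For the aligner, the counter and the use of strand, names and settings were not given in the sources used here. The deposited tables, 1 per library, hold raw counts of total, unique, exon, exon-exon and intron reads per gene, with no normalization, per the file headers. They also hold the authors' RPKM, per the file headers, which was used only for the order of levels. Exon and intron reads add up to the total in each row, and 1 row without a name, with 0 reads, was left out. Reads matching several genes and overlapping or antisense genes are uncertain. Precision rests on 16795748 to 20455268 total gene reads per library and on the spread between libraries.

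The positions of all 10 genes equal those of the Ensembl annotation of the same build. Of 76 other listed genes, 75 matched by exact name and 1 by a synonym. The 10 genes and all lists were chosen with earlier results of these data known. Counts were fitted in R 4.3.3 with edgeR 4.0.16 (filterByExpr with minimum count 10 and minimum total 15, TMM, robust quasi-likelihood, group as the only term) over the whole table of each read class, and p-values were adjusted over all genes tested. The intron-to-exon ratio and the exon-exon share of exon reads were tested as the interaction of group and read class with each library as a block. The procedure was also run on simulated data, with an outcome that is not given here. The text names the 10 genes, up to 4 genes per list with the largest called change (or the highest level if none was called), the 3 genes of mean log2 CPM of at least 1 most like hop, dome, Socs36E and Stat92E, and the 2 annotated genes on each side of hop, dome and Socs36E. Of the genes this rule picks, 1 is not reported here. rho, 312, the tRNA:Glu-CTC rows, Hrs, Stam, TSG101, Rab5, E(bx), apt, TotA, TotM, TotX, TotZ and tracheal markers were named after their values were seen.

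Alternatives were DESeq2 1.42.0, limma-voom (limma 3.58.1), scaling by RLE or by library size alone, testing without the filter or with a minimum of 1 CPM in 3 libraries, counting unique reads, a block for the replicate number, 1 library scale for both read classes, an adjusted p under 0.01 and each library left out. Unique intron and exon reads, and control replicate 2 and Hop.CA replicate 1 left out together, were added after seeing the data. Figures were drawn with matplotlib 3.10.9.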

Additional observations from a re-analysis of the deposited data

Results flagged for a closer look

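Each of 80 sets of control values was checked for a library far from the other 3, by its gap to the nearest divided by the range against Dixon's critical value at the 95% level for 4 samples, and 3 were found. Chance alone gives about 1 in 20, which 3 of 80 does not exceed. Control replicate 1 had 1 intron read of Socs44A, where the other 3 controls had 0, and the share of Socs44A reads in introns was 0.184% there (exact 95% binomial interval 0.00466% to 1.02%), where the exact intervals of the 0 shares in control replicates 2, 3 and 4 reach 0.569%, 0.864% and 0.672%. The limit of 3 counts that a count of 0 allows is 0.464%, 0.706% and 0.548% in these libraries. Both flags of Socs44A rest on that 1 read. With 0 in the other 3 controls any other value gives the largest possible gap, so the check cannot judge its size. Control replicate 1 also had the lowest share of ken reads in introns, at 0.260% (0.0315% to 0.935%), from 2 of 770 reads, against 0.647% to 0.682% in the other controls. For both genes the exact intervals of the 4 controls overlap. They cover counting error only, and the cause was not tested.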

How the results depend on the processing

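hop (log2 5.07 to 5.20), dome (1.56 to 1.79), Socs36E (1.30 to 1.51) and Ptp61F (0.56 to 0.68) kept their call in total gene reads in all 17 alternative settings. The number of the 10 genes called in total gene reads was 4 or 5 throughout, since ken lost its call in 12 settings. The replicate numbers do not pair the libraries: deviations of same-numbered libraries correlated at -0.22, -0.43 and -0.07. With the replicate block 4 genes were called in total gene reads, ken was not (edgeR adjusted p = 0.132), Cnot4, slbo, Tep2, Pa1, Tim8 and Ubqn lost their calls too (0.0601 to 0.0938), and 938 of all genes were called in place of 2978. Over all genes the count was 1312 at an adjusted p under 0.01, 1829 without Hop.CA replicate 1, 1676 without Hop.CA replicate 3 and 1573 without control replicate 2 and Hop.CA replicate 1. The number of genes with a changed intron-to-exon ratio, 2, was 1 at an adjusted p under 0.01 (Ptp61F), 1 with 1 library scale (Ptp61F), 1 with unique reads (dome), 0 without control replicate 2 and Hop.CA replicate 1, and 1 to 3 with a single library left out. Beyond the smaller number of libraries or reads in those settings, the cause was not tested. Some log2 values that were not called turned sign in alternative settings. Among these, the intron reads of Ptp61F were called lower without control replicate 1 (edgeR adjusted p = 0.0204). Socs16D was 0.019 in total gene reads and 0.022 in exon reads with the replicate block, and ranged over -0.21 to 0.015 and over -0.20 to 0.024 with libraries left out. With libraries left out, et ranged over -0.11 to 0.22 in total gene reads and -0.12 to 0.20 in exon reads, Socs44A over -0.0039 to 0.11 in exon reads and Su(var)2-10 over -0.029 to 0.094 in exon-exon reads. Ptp61F was at 0.51 in unique intron reads. The exon-exon share of Stat92E was -0.033 without the filter and ranged over -0.076 to 0.042 with libraries left out, and that of Socs36E over -0.21 to 0.10. Depth limits the exon-exon and intron reads most, which number under 10 per library for several of the genes.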
